A study of Mus musculus with 4 samples.

Results

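The Immune cells cluster is 1 of 17 groups of kidney nuclei that the authors separated by single-nucleus RNA sequencing, and it was taken here by its name in the deposited table of cluster averages. Its profile covered 14890 genes with at least 1 unique molecular identifier (UMI, a tag that marks 1 captured RNA molecule) of 24468 genes listed. The cluster held 363369 UMIs, which is 1.01% of the 36068714 UMIs in the 17 clusters. Only mixed-2, with 254460 UMIs, was shallower. The study used male C57BL/6 mice. In the group Cis9w, mice received 4 weekly injections of cisplatin at 8 mg/kg, a platinum drug that injures the proximal tubule, and kidneys were collected 9 weeks after the first injection. The group CT9w was untreated, and each group had 2 samples of kidney cortex with outer medulla. How many nuclei the cluster held, how many came from each mouse, which genes the clustering used, whether the counting used strand, and how doublets and reads of near-identical genes were treated were not given in the sources used here. No cluster column names a group, so no value of this cluster can be split into treated and untreated kidneys. The sample labels tie the cluster table to the second sample of each group and the proximal tubule table to the first, so the 2 tables may rest on different samples, with 1 per group.

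Leukocytes all descend from haematopoietic stem cells and carry the CD45 phosphatase, encoded by Ptprc, on their surface. The healthy kidney holds a resident network of macrophages, which depend on the receptor for colony stimulating factor 1 (Csf1r), and of dendritic cells. Both present antigen on class II molecules assembled with the invariant chain (Cd74). Smaller numbers of T, B and innate lymphoid cells are present too. After tubular injury, monocytes and lymphocytes enter from the blood. In nuclei most captured RNA is unspliced, so transcripts of long genes with large introns are sampled well and short genes of high cytoplasmic level are sampled poorly.

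All values below are averages in normalised UMIs per nucleus, a scale on which every cluster sums to 2008. One UMI in the Immune cells column is worth 0.00553 on this scale, and 3 UMIs, the limit that a count of 0 allows, 0.0166. The intervals in parentheses are 95% Clopper-Pearson intervals for 2 UMI sums, or exact Poisson intervals for 1 average, and cover counting error only. No spread between mice can be computed and no test between samples was possible. The clusters were themselves made from these transcripts, so the differences between clusters are a description and not a test. A gene is called higher where its Immune cells average was at least 4-fold that of the other 16 clusters pooled, lower where it was at most 0.25 of it, and leading where it was at least 4-fold the highest of the 16 single averages with at least 10 UMIs in the Immune cells column.

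The cluster carried its markers. Ptprc averaged 3.42 (3.16 to 3.70) in the Immune cells cluster from 619 UMIs. In the other 16 clusters it ranged from 0.00220 in PT-S3-2 over a median of 0.0129 to 0.103 in mixed-2, so the Immune cells average was 33.3-fold (19.4 to 63.0) the next highest, and 117-fold with Mixed-1 and mixed-2 left out. The gene lies on the minus strand of chromosome 1 of GRCm38, from 138062861 to 138175708. Cd74 averaged 0.945 (0.809 to 1.10), and the other clusters ranged from 0.00617 in DCT+CNT over a median of 0.0118 to 0.0619 in the endothelial cluster EC1. No other cluster came within 10-fold of the Immune cells cluster for either gene.

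The other 2 markers were shared with tubule clusters. Csf1r averaged 0.547 (0.445 to 0.666) from 99 UMIs, 2.54-fold (1.95 to 3.31) the level of PT-S3-1, where 143 UMIs gave 0.215. It was at 0.207 in PT-S3-2 and 0.0818 in PT-injury/repair, but at 0.00185 in PT-S1 and 0.00563 in PT-S2, so among proximal tubule clusters the 2 named PT-S3 were the highest. Csf1r overlaps Hmgxb3 on the opposite strand in GENCODE M21, and without known strand use reads of these 2 genes cannot be told apart. The same limit holds for other genes named below with an annotated opposite-strand overlap, among them Dock2, Bank1, Runx1, Arhgap15, Wdfy4, Pou2f2, Ms4a1 and Slamf7. Clec4a2 and Lilrb4a overlap another gene on the same strand, and no overlap is annotated for Ptprc, Cd74 and Dock10. Dock10, a guanine nucleotide exchange factor for small GTPases, averaged 2.81 (2.57 to 3.07) in the Immune cells cluster, 1.64 in PT-injury/repair and 1.23 in Mixed-1. Its ratio to PT-injury/repair was 1.71 (1.54 to 1.90), while in 13 of the other 16 clusters it lay under 0.2. The plot of the 4 markers by cluster shows both patterns.

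**Figure D1:**
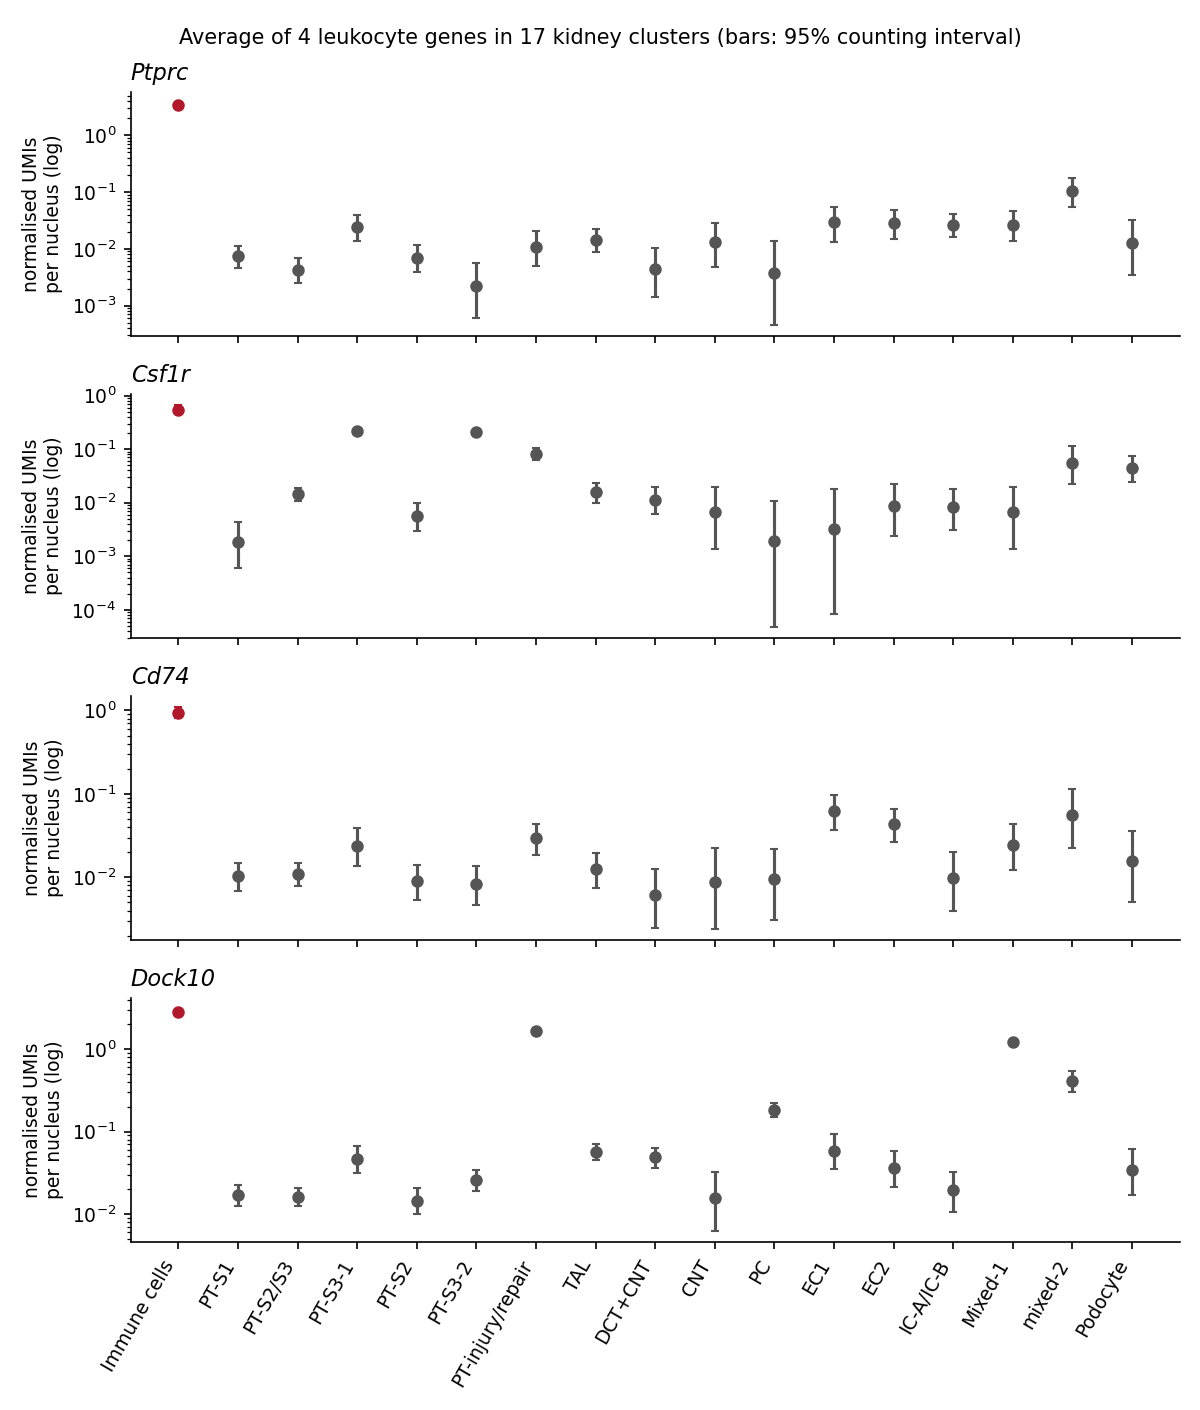
Averages of Ptprc, Csf1r, Cd74 and Dock10 in the 17 clusters, in normalised UMIs per nucleus on log axes, with 95% counting intervals (red, Immune cells; grey, the other 16). Ptprc and Cd74 stand apart in the Immune cells cluster, Csf1r is also raised in PT-S3-1 and PT-S3-2 at 0.215 and 0.207, and Dock10 in PT-injury/repair at 1.64.

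Of 7726 genes with enough UMIs to be compared, 950 were higher (12.3%) and 573 were lower (7.42%) than in the other 16 clusters pooled. The median ratio over these genes was 1.16. Leading genes numbered 375 of the 6742 genes with at least 10 UMIs in the Immune cells column (5.56%), and they held 24492 UMIs, 6.74% of the column. The Immune cells average was the highest of 17 for 1920 of the 6742 genes (28.5%). Over all 24119 genes with a UMI in any cluster, whatever their depth, it was the highest for 3542 (14.7%) and leading for 1.55%, and the counts over measured list members given further on are to be read against these 2 shares. Of the leading genes, 336 were protein coding in GENCODE M21 and 39 were other transcripts. For 196 leading genes the next highest cluster held at most 3 UMIs, so the ratios of those genes rest on very few molecules and are given with their counting intervals. The next highest cluster was mixed-2 for 63 leading genes, Mixed-1 for 58, EC2 for 55 and EC1 for 50, and it was PT-S1 for only 4. One UMI is worth 0.00789 in mixed-2 and 0.000370 in PT-S1, so at few UMIs a shallow cluster ranks next more easily. The part of depth in this order was not tested. Just inside the threshold lay Actr3, a subunit of the Arp2/3 complex, at 4.01-fold the level of Mixed-1, and just outside it lay Stk4, a Hippo pathway kinase, at 3.98-fold the level of Podocyte.

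The 30 leading genes with the largest ratios to the next cluster included genes known from myeloid cells and from B lymphocytes. Cd200r1, the inhibitory receptor for CD200, had 29 UMIs in the Immune cells column (0.160) and 1 UMI in all 16 other clusters together. Bank1, a scaffold protein of B cell receptor signalling, had 127 UMIs (0.702) against 20 in the other 16 clusters, a ratio of 624 (388 to 1056) to those clusters pooled. Better counted were Wdfy4, needed for cross-presentation by dendritic cells, with 298 UMIs (1.65) and a ratio of 104 (67.8 to 166) to TAL, and the unconventional myosin gene Myo1f, with 246 UMIs (1.36) and a ratio of 126 (53.3 to 392) to EC2. The Arp2/3 regulator Nckap1l of haematopoietic cells had 104 UMIs (0.575). Blk, a Src family kinase gene of B lymphocytes, had 10 UMIs. The octamer factor gene Pou2f2 had 189 UMIs (1.04) and a ratio of 121 (46.6 to 449), and Spi1, which encodes PU.1, the master regulator of myeloid development, had 86 UMIs (0.475) and a ratio of 105 (34.9 to 521).

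Inhibitory and paired receptors filled many of the other places among the 30. Lair1 (110 UMIs), Cd84 (100), Klra2 (79), Lilrb4a (70), Slamf7 (69), Sirpb1a (53), Cd300c2 (39), Sirpb1b (20) and Clec4a2 (19) had at most 3 UMIs in the next cluster, and the ratio of Cd84, the smallest of the 30, was 85.5 (28.4 to 422). Lilrb4a, Klra2, Clec4a2 and the 2 Sirpb1 genes belong to families of near-identical copies, so their values are uncertain. The inflammasome sensors Nlrp1b, with 161 UMIs (0.890), and Nlrp3, with 16 (0.0884), were also among the 30, as were the adhesion receptor gene Adgre4 (54 UMIs), the B cell surface gene Ms4a1, which encodes CD20 (14 UMIs), the granulocyte colony stimulating factor receptor gene Csf3r (31 UMIs), the autophagy gene Rubcnl (37), the adaptor gene Scimp (24), Ms4a14 (20) and the proton-sensing receptor gene Gpr65 (15). Of 3 further transcripts that are not protein coding in GENCODE M21, Gm35154 was the most abundant with 149 UMIs (0.823) against 9 in the other 16 clusters together.

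**Figure D2:**
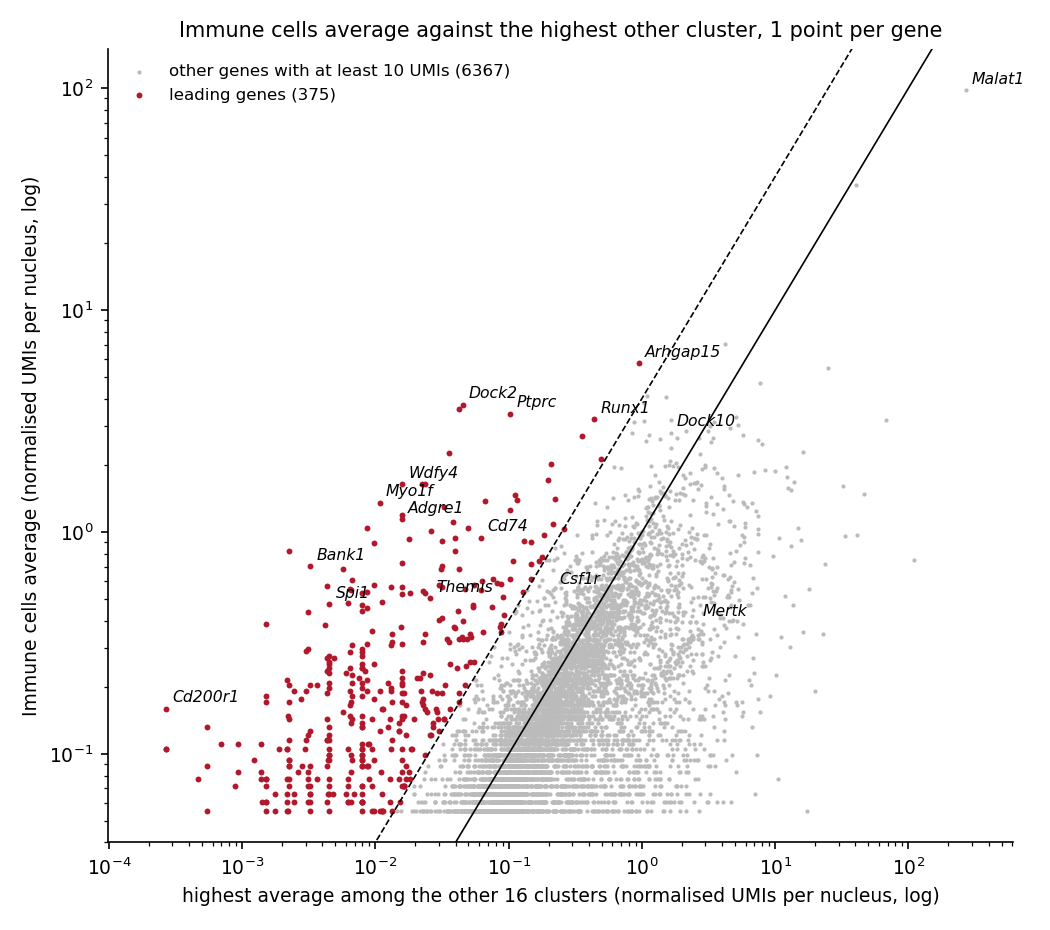
Immune cells average of each gene with at least 10 UMIs (vertical) against the highest average among the other 16 clusters (horizontal), both in normalised UMIs per nucleus on log axes; the solid line marks equality and the dashed line 4-fold. The 375 leading genes (red) lie above the dashed line, Ptprc, Cd74, Dock2 and Wdfy4 among them, while Dock10 and Csf1r lie between the lines and Mertk and Malat1 below.

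The 10 highest averages of the cluster were not all leukocyte genes. Malat1, a nuclear non-coding RNA, averaged 98.0 (96.5 to 99.4), the lowest of the 17 clusters, against 109 to 269 in the other 16. Gm42418, a transcript that overlaps ribosomal RNA sequence, averaged 36.6 and ranked 3 of 17. Next came Camk1d at 7.07, a calcium and calmodulin dependent kinase gene, Arhgap15 at 5.76, a GTPase activating protein gene for Rac, and the transcription factor genes Zbtb20 at 5.47 and Zeb2 at 4.69. Zbtb20 ranked 15 of 17, with 24.9 in PT-S2/S3, and Zeb2 second, with 7.68 in Mixed-1. The splicing regulator gene Mbnl1 (4.10), Pid1 (4.07), Tgfbr1 (3.82), which encodes the type I receptor for transforming growth factor beta, and Dock2 (3.76) completed the 10. Per kilobase of gene span these levels fall in another order: Tgfbr1 had 0.0619 normalised UMIs per nucleus and kilobase over its 61.7 kb, Camk1d 0.0168 over 421 kb and Dock2 0.00675 over 557 kb. Of the 10 genes, Arhgap15 and Dock2 were leading.

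The pan-leukocyte list takes in the cluster's markers Ptprc and Dock10, and its members were chosen with earlier results of these data known. Its counts are therefore a description and not independent support. It was higher in the Immune cells cluster for all 15 members that could be compared. All 15 had at least 10 UMIs in that column, which by itself lets a gene enter, so this count favours genes that are high there. The Immune cells average was the highest of 17 for all 16 measured members. Of the 16, 12 were leading. Dock2, which drives Rac activation in migrating leukocytes, averaged 3.76 (3.48 to 4.05) against 0.00325 to 0.0452 in the other clusters, with a median of 0.00847. Fyb, the adaptor protein that links T cell receptor and integrin signals, averaged 3.59 (3.32 to 3.87) against 0.000882 to 0.0425. Ikzf1, the Ikaros factor gene of lymphoid development, averaged 1.65 (1.47 to 1.85) and was at most 0.0224 elsewhere. These 3 genes were counted from 299 to 680 UMIs and lay at least 70-fold above every other cluster. Inpp5d, which encodes the lipid phosphatase SHIP1, was not leading, like Dock10, with 1.95 in the Immune cells cluster and 0.692 in EC2. The summed average of the list was 24.7, and in the other clusters it ran from 0.0972 to 2.49, the highest in Mixed-1. The median ratio to the other 16 pooled was 220 over the 16 members, beside 0.549 over all 24119 genes with any UMI (2.37 with genes at 0 set to 3 UMIs).

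Macrophage and monocyte markers, a list that takes in Csf1r and Cd74, held 13 leading genes. Of 24 measured members, 18 had their highest average in the Immune cells cluster and 2 (Ly6c2 and Lyve1) had 0 UMIs there. Adgre1, which encodes the mouse macrophage marker F4/80, averaged 1.14 (0.993 to 1.31) from 207 UMIs and at most 0.0158 elsewhere. The costimulatory ligand gene Cd86 averaged 0.680, the mannose receptor gene Mrc1 0.542, the monocyte chemokine receptor gene Ccr2 0.525 and Ms4a7 0.470, and the next cluster held at most 14 UMIs of any of these 4. Transcripts of the complement component C1q, a product of tissue macrophages, came as 54 UMIs of C1qb, 21 of C1qc and 17 of C1qa. Cx3cr1, the fractalkine receptor gene of kidney macrophages, averaged 0.321 and was 14.1-fold (6.41 to 36.5) the level of EC1. Mertk, a receptor for the uptake of dead cells known from macrophages, did not follow, and averaged 0.392, rank 11 of 17, against 2.55 in Podocyte. Lyz2 had 25 UMIs, Cd68 5 and Cd14 1.

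Dendritic cell markers were present at lower counts. Of 12 measured members, 10 had their highest average in the Immune cells cluster and 4 were leading. Clec9a, the receptor for dead cells on cross-presenting dendritic cells, averaged 0.260 from 47 UMIs, 4.69-fold (2.64 to 8.71) the level of EC1. Flt3, the cytokine receptor of dendritic cell progenitors, averaged 0.144, the integrin gene Itgax (CD11c) 0.0939 and Siglech, a gene of plasmacytoid dendritic cells, 0.0718 from 13 UMIs. Irf8 averaged 0.492, 3.01-fold (2.19 to 4.16) the level of Mixed-1. Zbtb46 and Dpp4 were higher elsewhere, at 1.16 in EC2 and 2.36 in Podocyte against 0.254 and 0.326.

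T cell markers were uneven. Of 20 measured members, 15 had their highest average in the Immune cells cluster and 7 were leading. Skap1, an adaptor of T cell adhesion, averaged 1.09 (0.947 to 1.26) from 198 UMIs, 5.08-fold (4.23 to 6.09) the level of TAL. Themis, required for T cell selection in the thymus, averaged 0.503 (0.405 to 0.617) and at most 0.0259 elsewhere. Cd247 had 40 UMIs, the kinase gene Lck 34 and Il7r 23. The chains of the CD3 complex were near the limit, with 6 UMIs of Cd3g, 5 of Cd3e and 4 of Cd3d, and the coreceptor genes Cd4 and Cd8a had 2 and 1. Foxp3, the factor of regulatory T cells, had 0 UMIs, which allows up to 0.0166 normalised UMIs per nucleus. Bcl11b, a T lineage factor, was close to a tubule cluster, with 0.354 against 0.390 in PT-S2.

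B cell markers were measured for 12 genes, of which 11 had their highest average in the Immune cells cluster and 6 were leading. Besides Bank1, Ms4a1 and Blk these were Pax5, the factor of B cell identity, with 44 UMIs (0.243), and the immunoglobulin heavy chain genes Ighm with 39 (0.216) and Ighd with 27 (0.149). Ebf1, which directs early B cell development, averaged 1.34 (1.17 to 1.52) but 5.84 in EC2, and ranked 5 of 17. Of 8 plasma cell markers, the light chain gene Igkc had 34 UMIs, Irf4 24 and Jchain 23, all 3 leading, and Mzb1 and Tnfrsf17 had 0.

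Other lineages were sparse. Of 14 markers of natural killer and innate lymphoid cells, Tbx21, which encodes T-bet, had 19 UMIs (0.105), Klrk1 14, Il2rb 13 and Il1rl1 11, and these 4 were leading, on fewer than 30 UMIs each, while the cytotoxicity genes Prf1, Gzma and Nkg7 and the markers Ncr1 and Eomes had 0. Of 10 measured neutrophil markers, 8 had 0 UMIs, S100a9 had 2 and Csf3r 31. None of 4 measured mast cell and basophil markers had its highest average in the cluster. Of 12 cycling cell markers, 7 had their highest average there, but 9 of the 12 had 1 to 9 UMIs, so that single molecules set the rank of single genes. The best counted, Top2a, had 12 UMIs (0.0663), 1.65-fold (0.774 to 3.27) the level of PT-injury/repair. Summed over the cycling cell list, the Immune cells average was the highest of all clusters, at 0.309 from 56 UMIs. The next highest sum was 0.193 from 158 UMIs in PT-injury/repair. The plot of lineage markers shows these levels gene by gene.

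**Figure D3:**
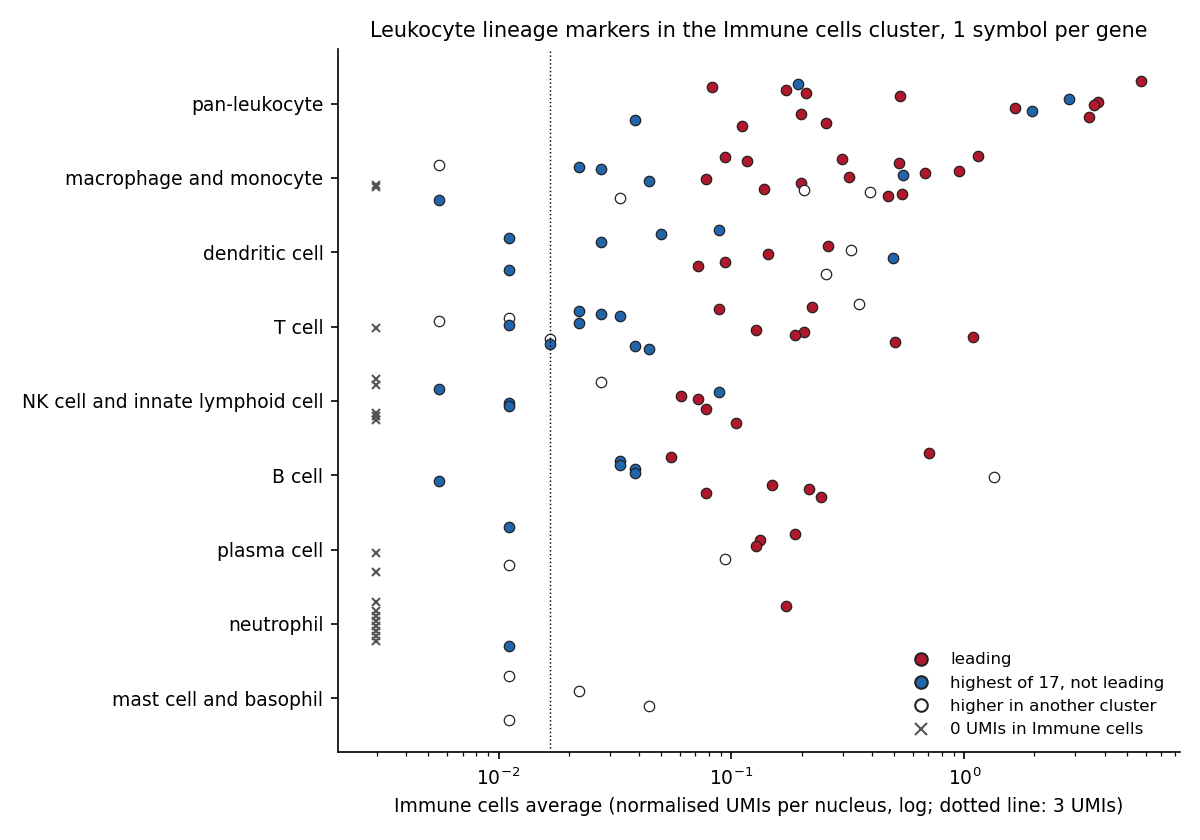
Immune cells average of each lineage marker, in normalised UMIs per nucleus on a log axis, 1 symbol per gene, with genes at 0 UMIs drawn as crosses at the left and the level of 3 UMIs as a dotted line. The pan-leukocyte list has 12 leading genes (red) of 16, the macrophage and monocyte list 13 of 24, the T cell list 7 of 20, and the neutrophil list has 8 crosses of 10.

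Genes of class II antigen presentation, the marker Cd74 among them, were mostly highest in the cluster. Of 14 genes, 12 had their highest average there and 8 were leading, with a median ratio of 54.9 to the other clusters pooled. Ciita, the master regulator of class II genes, averaged 0.912 (0.778 to 1.06) from 165 UMIs against 0.00312 to 0.0316 elsewhere. The class II chain genes H2-Eb1, H2-Aa and H2-Ab1 averaged 0.823, 0.680 and 0.376, against 0.0395, 0.0423 and 0.0391 in the next cluster. Ctss, the protease that trims the invariant chain, averaged 0.724 and at most 0.0158 elsewhere. The protease gene Lgmn, by contrast, was higher in PT-S1, at 0.569 against 0.403. Class I genes were shared with the endothelium. Only 1 of 16 was leading, the median ratio was 6.81, and the next or highest cluster was EC1 or EC2 for most: H2-K1 averaged 0.486 against 0.384 in EC1, a ratio of 1.27 (0.949 to 1.68), and B2m, the light chain of class I, 0.304 against 0.312 in EC2, a ratio of 0.973 (0.700 to 1.34). The class I activator gene Nlrc5 averaged 0.558, 2.52-fold (1.89 to 3.34) the level of EC2.

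Interferon response genes were shared with the endothelium as well. Of 36 measured genes, 14 had their highest average in the Immune cells cluster and 3 were leading. Samhd1, a nucleotide hydrolase, averaged 0.763, 3.31-fold (2.55 to 4.30) the level of EC2, and the DNA sensor family gene Ifi207 averaged 0.348, 6.73-fold (4.15 to 11.3). Rsad2, which encodes viperin, averaged 0.149 against 0.998 in EC2. The summed average of the list was 4.84 in the Immune cells cluster and 5.34 in EC2.

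Receptors that read microbes, antibody and neighbouring cells were mostly highest in the cluster. Of 30 measured pattern recognition genes, 20 had their highest average there and 13 were leading, with the DNA sensor Aim2 at 0.309 (56 UMIs), the Toll-like receptor relative Cd180 at 0.348 (63 UMIs) and the lectin gene Clec4a1 at 0.171 (31 UMIs). Tlr7, a sensor of single-stranded RNA, averaged 0.193 against 0.119 in Podocyte. Of 26 Fc receptor and adaptor genes, 25 had their highest average in the cluster and 15 were leading, with a median ratio of 164. Fcgr2b, the inhibitory Fc receptor, averaged 0.337 against 0.0526 in PT-S1. The small adaptor genes Fcer1g and Tyrobp, which carry the signalling motif for these receptors, had 19 and 18 UMIs. Of 33 genes in the list of inhibitory and checkpoint receptors, 26 had their highest average in the cluster and 15 were leading. The 18 that could be compared were all higher. All 18 had at least 10 UMIs in the Immune cells column, which by itself lets a gene enter, so this count favours genes that are high there. The list also takes in costimulatory and accessory genes. Among its members were Ly86, the partner of Cd180, at 1.19 (216 UMIs), Btla at 0.442 (80 UMIs) and Cd84 at 0.553 (100 UMIs), while Lag3, Tigit and Tnfrsf9 had 0 UMIs.

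Kinases and adaptors downstream of these receptors were among the best counted genes. Of 39 genes of proximal immune signalling, 32 had their highest average in the cluster and 20 were leading. Lyn, a Src family kinase, averaged 3.13 (2.88 to 3.40), 3.57-fold (3.13 to 4.06) the level of EC2. Prkcb, a protein kinase C gene of B and myeloid cells, averaged 2.27 (2.05 to 2.50) and at most 0.0358 elsewhere. Syk and Btk, the kinases that act after Fc and B cell receptors, averaged 0.702 and 0.276 and were at most 0.0316 and 0.00789 elsewhere. Pik3ap1, an adaptor that joins these receptors to phosphoinositide 3-kinase, averaged 1.02. The members Plcg2 and Blnk, known from B cell signalling, were higher in collecting duct clusters: Plcg2 averaged 0.801 against 1.40 in IC-A/IC-B, and Blnk 0.796 against 1.31 in PC.

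The list of DOCK proteins and GTPase regulators covers the control of the actin cytoskeleton. Of 38 genes, 26 had their highest average in the Immune cells cluster and 14 were leading. Beside Dock2 and Dock10, Dock8 averaged 2.67 against 1.84 in TAL, a ratio of 1.45 (1.31 to 1.60), and Dock11 averaged 0.967 against 0.184 in Podocyte, a ratio of 5.25 (3.89 to 7.18). Elmo1, the partner of DOCK proteins, averaged 3.21 against 1.66 in Podocyte. Arhgap15 averaged 5.76 (5.42 to 6.12), 6.11-fold (5.45 to 6.86) the level of Mixed-1. Dock4 and Dock1 were higher in Podocyte and EC2, so within the family Dock2 was the member with the least signal in other clusters among those named. Of 28 integrin and adhesion genes, 18 had their highest average in the cluster. Itga4, the alpha 4 chain of the receptor for VCAM-1, averaged 1.11 (0.962 to 1.28) and at most 0.0380 elsewhere, and the beta 2 integrin partners Itgal, Itgam and Itgb2 had 52, 36 and 21 UMIs.

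**Figure D4:**
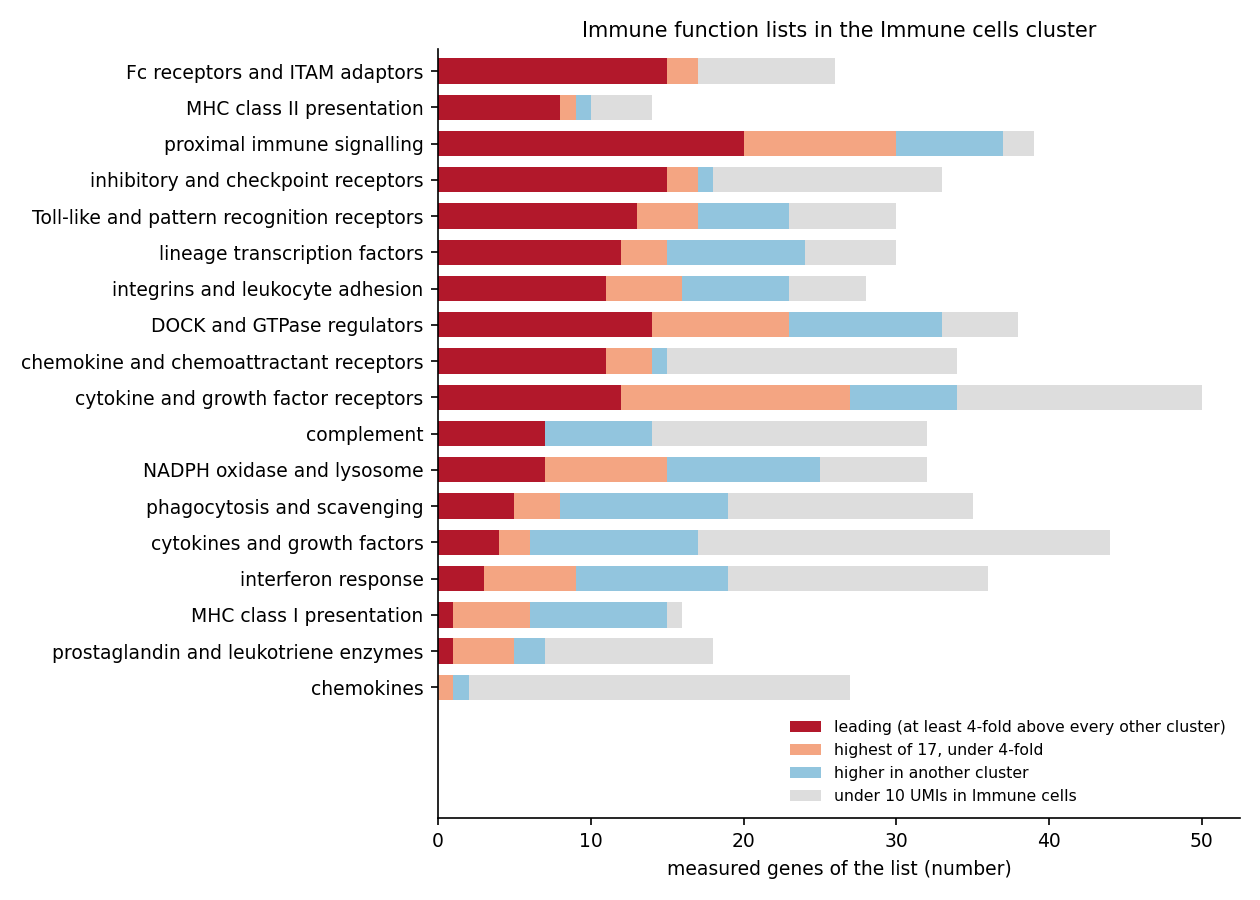
Number of measured genes of each immune function list, split by whether they were leading in the Immune cells cluster, highest of 17 but under 4-fold, higher in another cluster, or under 10 UMIs in the Immune cells column. Lists of receptors and signalling have the longest red bars (20 of 39 for proximal immune signalling), class I presentation has 1 of 16 and chemokines have 0 of 27.

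Transcription factors of the leukocyte lineages were measured for 30 genes, of which 16 had their highest average in the cluster and 12 were leading. Runx1, a regulator of blood formation, averaged 3.23 (2.97 to 3.50), 7.32-fold (6.41 to 8.37) the level of PT-injury/repair, where it was at 0.441. Bach2, a repressor that restrains lymphocyte differentiation, averaged 1.44 against 0.879 in EC2, a ratio of 1.63 (1.39 to 1.91). Fli1, an ETS family factor shared by blood and endothelium, averaged 1.66 against 2.46 in EC2.

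Receptors for secreted signals and the signals themselves were counted as separate lists. Of 50 cytokine and growth factor receptor genes, 33 had their highest average in the Immune cells cluster and 12 were leading, of 34 with the 10 UMIs that leading requires, and of 34 chemokine and chemoattractant receptor genes, 25 and 11. Il10ra, the receptor chain for interleukin 10, averaged 0.531 (0.430 to 0.648) and at most 0.00789 elsewhere, the chemokine receptor gene Ccr2 averaged 0.525, and the nucleotide receptor gene P2ry6 0.376. The complement receptor genes C3ar1 and C5ar1 had 26 and 24 UMIs. Of 27 measured chemokine genes, 11 had 0 UMIs and only 2 had at least 10: Cxcl16 averaged 0.193 from 35 UMIs, and Ccl25, with 19 UMIs (0.105), was higher in DCT+CNT at 0.268. Ccl4 and Ccl5 had 6 UMIs each and Ccl3 0. Of 44 cytokine and growth factor genes, 14 had their highest average in the cluster, 4 were leading of 17 with at least 10 UMIs, and 12 had 0 UMIs, Ifng and Il10 among them. The 4 leading ones were Il12b and Il18 with 19 UMIs each, Il1b with 13 and Tnf with 10. Tgfb1, the profibrotic cytokine gene, averaged 0.249 (45 UMIs) against 0.203 in EC2, a ratio of 1.23 (0.841 to 1.77).

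The ligands of Csf1r lay outside the cluster. Il34, which encodes interleukin 34, had 2 UMIs in the Immune cells column (0.0111) and averaged 0.851 in PT-injury/repair, the highest of 17. Csf1, named after its values were seen, had 7 UMIs (0.0387) and was also highest in PT-injury/repair, at 0.145.

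Effector machinery was mixed. Cybb, the catalytic subunit of the phagocyte NADPH oxidase, averaged 0.536 (0.435 to 0.654) and at most 0.00862 elsewhere, and the cathepsin gene Ctsc averaged 0.906 against 0.148 in TAL. Of 32 oxidase and lysosome genes 7 were leading, and the common lysosomal gene Lamp2 (0.624 against 0.818 in PT-S1) was not. Of 35 phagocytosis and scavenging genes 5 were leading. The receptor tyrosine kinase gene Axl averaged 0.337 against 0.306 in Mixed-1, and the scavenger receptor gene Cd36 0.282 against 1.10 in PT-S3-2. Of 32 complement genes 7 were leading. Among 18 prostaglandin and leukotriene genes, Hpgds, a prostaglandin D synthase gene, was leading at 0.332 (60 UMIs), and Tbxas1, the thromboxane synthase gene, averaged 1.09 against 0.600 in PT-S1.

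At the other end, 17 of the 573 lower genes had 0 UMIs in the Immune cells column and 356 had fewer than 10. Among the 10 lowest were Grhl2, an epithelial transcription factor gene for which the pooled average of the others predicts 20.3 UMIs, Pcsk6, a proprotein convertase gene (17.0), the Wnt receptor gene Ror2 (12.3), Lrrc31 (12.2), Slc44a3 (12.2), the nephron patterning gene Emx2 (11.9) and Col26a1 (11.4), each with 0 UMIs. For Grhl2 the ratio to the other clusters pooled was at most 0.182 at the upper end of its counting interval, and for Pcsk6 at most 0.218. For the other 5 named genes the upper end passed the threshold of 0.25, from 0.300 for Ror2 to 0.325 for Col26a1, and with 3 UMIs in place of 0 the ratios of Emx2 (0.251) and Col26a1 (0.264) would not be called lower. These genes were not detected at this depth, which does not show that they are absent.

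Transcripts of other cell types were present in the column, and none of their listed markers was leading, or 1 fibroblast and mural marker with Mixed-1 and mixed-2 left out. The 12 proximal tubule markers summed to 10.7, and all 12 had UMIs there, from Kap at 2.49 (451 UMIs) and Slc34a1 at 1.77 (320 UMIs) downward. The same sum was 3.03 to 26.7 in the other 10 clusters not named for the proximal tubule and 7.38 to 57.4 in the 6 that are, so the Immune cells value lay above 8 of those 10, below mixed-2 and Podocyte. None of the 12 was highest in the Immune cells cluster, and the median ratio to the other 16 pooled was 0.312. Distal nephron markers summed to 2.67 (45.7 in TAL), endothelial markers to 1.09 (34.3 in EC2), fibroblast and mural markers to 0.459 (4.47 in Mixed-1) and podocyte markers to 1.66 (132 in Podocyte). Mitochondrially encoded transcripts averaged 3.88 in sum, rank 4 of 17, and ribosomal protein transcripts 11.9, also rank 4. Of 8 measured platelet and erythroid markers 1 was highest in the cluster and none was leading, and the injured tubule markers summed to 0.945 (8.17 in PT-injury/repair). The part of free RNA or doublets in the shared genes was not tested.

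Across 24119 genes, the Immune cells profile was most like EC1 by the correlation of log2 averages (Pearson r 0.841, Spearman rho 0.834) and least like PC (0.794 and 0.786). Over the 6742 genes with at least 10 UMIs, Mixed-1 (r 0.524) came before EC1 (0.516). Over all 24119 genes the next closest after EC1 were EC2 at r 0.832 and PT-injury/repair at 0.828. These values span a narrow range, they are across genes of pooled columns that share depth and common transcripts, and genes are not replicates.

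The 250 bases before the transcription start were read from RefSeq promoter windows (GRCm38.p6) for the 287 leading genes that matched by symbol. The word AGGAAGT, a form of the ETS family core that PU.1 and its relatives recognise, lay on either strand in 92 of 365 windows of leading genes (25.2%), in 7.58% of 20743 windows of all measured genes and in 7.78% of the 7097 windows of genes with at least 10 UMIs. The shorter and overlapping words GAGGAA and GGAAGT lay in 36.4% and 37.0% of windows of leading genes and in 23.2% and 21.1% of all. The longer GAGGAAG, which contains the first, lay in 22.5%, against 11.4% for genes with at least 10 UMIs. The RUNX core word TGTGGT lay in 20.8% against 12.2% of all. These 5 words were chosen after the leading genes were known, all 5 are given, and a match is a description of letters and not of binding. Of the 30 genes named first, 3 had AGGAAGT in a window free of annotated exons, and these windows are printed 5′ to 3′ along the gene's strand with the word in capitals. They are Wdfy4 (chr14:33185067-33185316, minus strand), Cd300c2 (chr11:115001881-115002130, minus strand) and Nlrp1b (chr11:71230734-71230983, minus strand), and the Wdfy4 window lies inside the gene span that GENCODE M21 gives.
Wdfy4: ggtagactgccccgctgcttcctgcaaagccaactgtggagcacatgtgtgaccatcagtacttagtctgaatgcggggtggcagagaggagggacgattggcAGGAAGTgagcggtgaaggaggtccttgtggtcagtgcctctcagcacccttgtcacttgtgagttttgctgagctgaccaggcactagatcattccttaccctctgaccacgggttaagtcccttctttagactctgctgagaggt
Cd300c2: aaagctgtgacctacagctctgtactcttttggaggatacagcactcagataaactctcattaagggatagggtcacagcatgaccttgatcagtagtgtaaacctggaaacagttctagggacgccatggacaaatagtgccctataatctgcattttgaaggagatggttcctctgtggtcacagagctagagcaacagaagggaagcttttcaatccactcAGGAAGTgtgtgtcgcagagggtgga
Nlrp1b: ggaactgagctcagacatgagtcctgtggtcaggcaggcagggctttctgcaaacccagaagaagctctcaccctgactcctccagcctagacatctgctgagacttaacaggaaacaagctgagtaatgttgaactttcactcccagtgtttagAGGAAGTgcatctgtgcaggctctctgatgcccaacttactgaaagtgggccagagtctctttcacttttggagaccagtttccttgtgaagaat

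The word began 147 bases before the start in Wdfy4, 26 in Cd300c2 and 95 in Nlrp1b. The 3 genes have 298, 39 and 161 UMIs in the Immune cells column, as given above.

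The only columns that separate Cis9w from CT9w pool proximal tubule nuclei, 5123727 UMIs in CT9w and 8557662 in Cis9w, scaled to a sum of 2797. They show how much RNA of the leading genes was counted in those pools. There leukocyte nuclei or free RNA in the pool and expression by tubule nuclei cannot be told apart, nor can fewer cells and less RNA per cell. Whether 1 or 2 samples per group entered each pool was not stated either. Leading genes made up 0.0963% of the UMIs in CT9w and 0.110% in Cis9w. These sums include broadly expressed genes such as Rbpj (419 and 629 UMIs) and Actr3 (366 and 520), which averaged at least 0.116 in every cluster. Arhgap15 alone had 357 and 1140 UMIs. Of 353 leading genes listed there, 142 had at least 10 UMIs in both pools together, 28 of these were at least 2-fold higher in Cis9w and 9 at least 2-fold lower, while of all 15386 genes with that depth 7.6% were higher and 3.75% lower. The leading genes had a median of 35.5 UMIs against 200 for all genes. Of the 28, 23 had fewer than 10 UMIs in CT9w, the shallower pool, and so passed the depth filter only with the UMIs of Cis9w, where they are high. The counts were 3 and 1 where the whole counting interval had to pass 2-fold. With a minimum of 1 UMI they were 48 higher and 107 lower, but a count of 0 in CT9w was set to 3 UMIs. Genes such as Spi1, with 0 and 2 UMIs, and Nlrp3, with 0 and 1, thus counted as lower although seen only in Cis9w. The counts at 1 UMI therefore cannot show a direction. Since most of the 28 passed the filter only with Cis9w, no direction is drawn for the leading genes as a group. The interval lay above 1 for 18.3% of the 142 and 16.9% of all, and below 1 for 6.34% and 12.7%.

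In the pools Ptprc was counted with 10 UMIs without cisplatin (0.00546) and 48 with it (0.0157), Cis9w over CT9w being 2.87 (1.44 to 6.37). Cd74 had 17 and 47 UMIs, a ratio of 1.66 (0.933 to 3.07) whose interval includes 1. Dock10, which is not a leading gene, went from 27 to 896 UMIs, from 0.0147 to 0.293, a ratio of 19.9 (13.6 to 30.3), and is the gene shared with PT-injury/repair. Csf1r, shared with the PT-S3 clusters, had 174 and 144 UMIs, 0.0950 and 0.0471, a ratio of 0.496 (0.395 to 0.622). The 2 markers shared with tubule clusters thus had more molecules in the pools than Ptprc and Cd74 and differed in opposite directions.

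Among leading genes, Runx1 was the best counted of those higher in Cis9w, with 28 and 233 UMIs and a ratio of 4.98 (3.36 to 7.66). Dock2 had 4 and 32 UMIs, a ratio of 4.79 (1.70 to 18.6), and the potassium channel gene Kcnq5 17 and 86 UMIs, a ratio of 3.03 (1.79 to 5.44). The genes Kcnq5, Apbb1ip and Sh3bp2 were named after their values were seen. Irf4 had 0 and 18 UMIs, a ratio of 3.59 with the 0 in CT9w set to 3 UMIs, and a counting interval from 2.63 upward. Dock2 and Irf4 both passed the depth filter only with the UMIs of Cis9w, where they are high. Arhgap15, with 357 and 1140 UMIs, was 1.91-fold (1.70 to 2.16) higher and so below the threshold. Apbb1ip, an adaptor of integrin activation, and Sh3bp2 were the best counted of those lower. Apbb1ip had 160 and 40 UMIs and a ratio of 0.150 (0.103 to 0.213). Sh3bp2 had 122 and 78 UMIs, a ratio of 0.383, and Ikzf1 38 and 31. In the same pools 8 of 11 comparable injured tubule markers were at least 2-fold higher in Cis9w, beside 7.6% of all 15386 genes. Their median ratio was 5.99 and their summed average 2.90 against 1.69. Higher members also numbered 5 of 10 for podocyte, 4 of 10 for cycling cell (2 lower), 4 of 12 for distal nephron and 3 of 7 for fibroblast and mural markers. The endothelial markers summed to 0.390 against 0.248, with 1 of 12 higher. The limit of the depth filter given above holds for these counts too. The part of these lists in the values of the leading genes was not tested.

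**Figure D5:**
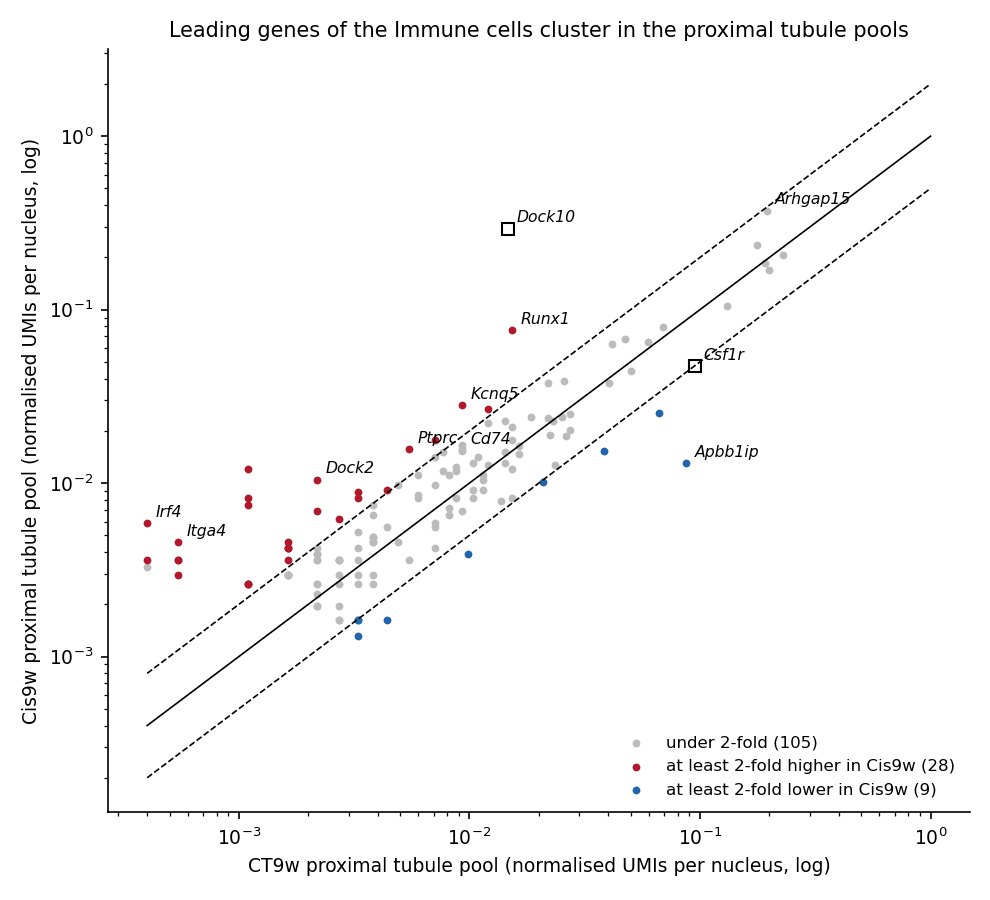
Average of each leading gene with at least 10 UMIs in both proximal tubule pools together, Cis9w (vertical) against CT9w (horizontal), in normalised UMIs per nucleus on log axes, with equality (solid) and 2-fold (dashed) lines; genes at 0 UMIs in CT9w are drawn at the left edge, and squares mark Dock10 and Csf1r, which are not leading genes. Of 142 genes, 28 lie above the upper dashed line and 9 below the lower one, with Runx1 above and Apbb1ip below. With a minimum of 1 UMI, which is not drawn, 48 genes counted as higher and 107 as lower. The 107 include genes at 0 UMIs in CT9w that were seen only in Cis9w, so these 2 counts cannot show a direction.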

How the data were processed

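The averages the authors deposited are a signal on a scale of normalised UMIs per nucleus, made by pooling nuclei per cluster or per group, per the file headers. Per the submitters' processing notes, Cell Ranger 5.0.1 was a tool and mm10 a build. Filters, clustering and normalisation were not given in the sources used here. Fold changes and p-values in the tables were left out, since the profile alone is described. Every average is a whole multiple of 1 step per column (100% of values within 0.1 UMI in the cluster table, at least 99.995% in the proximal tubule table), so whole reads, here UMIs, and the sum of size factors were recovered. A count model was not fitted, since no column is a sample and no residual spread exists.

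Ratios of averages used the recovered UMIs, with genes at 0 set to 3 UMIs where a bound is given. Genes entered the comparison with the other 16 clusters at 10 UMIs in the Immune cells column, observed or predicted from the pooled average of the others. For 16 repeated symbols the first entry was used in lists. Of 24468 gene IDs, 24432 matched GENCODE M21. The recovery and the calls were tested on simulated data (Python 3.11.15, numpy 2.4.6, pandas 2.3.3, scipy 1.17.1). Barcodes shared between libraries were not analysed here.

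Genes were named by rule: the 30 leading genes with the largest ratio to the next cluster, the 10 highest averages, the 10 lowest ratios, and in each of 35 lists up to 6 members with the highest Immune cells average and up to 3 higher elsewhere. Some genes that the rule names are not reported here. Further list members are named as examples of their group. The members, lists and rules were chosen with earlier results of these data known. For likeness, 0.00150 was added to averages before log2.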

Additional observations from a re-analysis of the deposited data

How the results depend on the processing

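No paired analysis was possible because no column carries a sample, and for the same reason no replicate could be left out. With a fold threshold of 2, the genes higher, lower and leading numbered 1818, 1516 and 607, and with a threshold of 8, 627 and 142 were higher and lower. With a minimum of 30 UMIs the 3 counts were 504, 307 and 196, and with a minimum of 1 UMI 2421, 1824 and 789. Requiring the whole counting interval past the threshold left 55 lower and 239 leading genes. The other settings, without Mixed-1 and mixed-2, without mitochondrially encoded genes, with equal weights, against the 10 clusters not named for the proximal tubule, and without PT-injury/repair, moved none of the 3 whole-profile counts by over 1.5 times, although 66.3% of the lower genes were kept with equal weights and 53.2% against the 10 clusters. Leading members of lists fell with a minimum of 30 UMIs to these numbers: dendritic cell 1, natural killer and innate lymphoid cell 0, B cell 3, plasma cell 1, class I presentation 0, pattern recognition 4, Fc receptors 6, integrins 6, chemokine receptors 6, cytokines 0, cytokine receptors 5, complement 2, oxidase and lysosome 3 and phagocytosis 2. Requiring the whole interval left Fc receptors 9, cytokines 1, phagocytosis 3, dendritic cell 1, plasma cell 1 and class I presentation 0. Over all settings 45 list counts moved by over 1.5 times and 235 did not. Among those that moved were the fibroblast list, from 0 to 1 without Mixed-1 and mixed-2, and chemokines, from 0 to 8 with a minimum of 1 UMI. The ratio of Ptprc to the next cluster was 117 without Mixed-1 and mixed-2, and that of Dock10 2.28 without PT-injury/repair. In the proximal tubule pools, the leading genes higher and lower in Cis9w numbered 9 and 1 at 4-fold, 10 and 5 with 30 UMIs, 48 and 107 with 1 UMI, and 3 and 1 with the whole interval past 2-fold. At 1 UMI, genes with 0 UMIs in CT9w and 1 or 2 in Cis9w counted as lower, since 0 was set to 3 UMIs. The likeness to EC1 was 0.516 over genes with at least 10 UMIs, where Mixed-1 was higher at 0.524, and 0.834 as Spearman rho. The shallow Immune cells and mixed-2 columns limit all ratios, since 1 UMI there is worth 0.00553 and 0.00789.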

Other observations

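Of the 375 leading genes, 204 belonged to none of the lists. Named after their values were seen, by the highest Immune cells average, the first were Slc9a9, a sodium and proton exchanger gene of endosomes, at 2.71 from 491 UMIs (0.353 in IC-A/IC-B), Fam49b, a regulator of Rac, at 2.14 (0.492 in DCT+CNT), Rbpj, the DNA-binding effector of Notch signalling, at 2.03 (0.206 in PT-injury/repair) and the histone deacetylase gene Hdac9 at 1.72 (0.199 in PC). The non-coding transcript Gm26740 followed at 1.65 from 299 UMIs, with 53 UMIs in the other 16 clusters together. Apobec1, which encodes a cytidine deaminase, averaged 1.39 (0.116 in Mixed-1), Lcp1, the leukocyte actin-bundling protein gene, 1.41 (0.222 in PT-S3-2), and Epsti1, an interferon-induced gene, 1.26 (0.102 in PC).

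A further 1545 genes were highest in the Immune cells cluster without being leading, and their next cluster was EC2 for 293, Mixed-1 for 193 and EC1 for 177. Podocytes shared single genes with the cluster: Ptpro, a receptor phosphatase gene, averaged 0.470 in Immune cells, second after Podocyte at 6.51. Itga8, the alpha 8 integrin gene of mesenchymal cells, averaged 0.315, second after Mixed-1 at 0.575, while Pdgfra and Pdgfrb had 3 and 4 UMIs.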
